A study of Mus musculus with 24 samples.

Results

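The circadian clock genes described here are Bmal1 (named Arntl on the array), Clock, Per1, Per2, Per3, Cry1, Nr1d1, Nr1d2, Dbp and Tef, 10 genes chosen by name for their place in the clock loop. On the Illumina mouse bead array 18 of 25697 probes were annotated to them. A filter that asked for a detection p under 0.01 on 6 or more of the 24 arrays kept 10 of these probes and left 8 of the 10 genes measured. Per3 and Cry1 have 1 probe each, neither was detected on any array, and both genes are not measured here. The other genes were read from a fit over all 7576 named genes that passed the filter.

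RNA came from fibro/adipogenic progenitors (FAPs), mesenchymal stromal cells that lie between the fibres of skeletal muscle and can form fibroblasts and fat cells. Muscles of the hind limb (quadriceps, gastrocnemius and tibialis anterior, pooled) from male wildtype C57BL/6J mice were the source of the freshly sorted cells. The 4 groups held 6 arrays each: young quiescent (age 2 to 4 months, muscle left uninjured), young activated (the same age, 3 days after muscles were injected with 50 µl of 50% glycerol), old quiescent (age 20 to 24 months, uninjured) and old activated (age 20 to 24 months, 3 days after glycerol). The comparisons ask how the clock genes differ between the uninjured and the injured state in each age, between the ages in each state, and whether the activation change itself differs with age. The sources used here give neither the time of day at which muscles were taken nor the sorting gate. All columns of a group carry 1 and the same letter in their names, of unstated meaning, so that group and letter cannot be told apart.

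The mammalian clock is a feedback loop of transcription. BMAL1 and CLOCK bind E-boxes as a pair and switch on the Per, Cry and Nr1d genes. PER and CRY proteins return to the nucleus and block BMAL1 and CLOCK, while the REV-ERB receptors encoded by Nr1d1 and Nr1d2 repress Bmal1 through ROR elements. Dbp and Tef encode PAR bZIP factors that bind D-boxes and pass the rhythm to output genes. In such a loop the level of most members depends on the hour of sampling, and Bmal1 peaks at a phase opposite to that of Dbp and the Nr1d genes.

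Promoter windows of 300 bases (250 before and 50 after an annotated start) were available from RefSeq for 9 of the 10 genes, in 14 windows on build GRCm38.p6. Per2 had no entry. Each window was read on both strands for 6 motifs: the E-box CACGTG, the E-prime box CACGTT, the D-box TTATGTAA, the D-box variant TTACGTAA, the ROR element TAGGTCA and the cAMP response element TGACGTCA. None of these letter strings contains another. Of the windows printed here, those of Tef are shown because Tef was lower after injury in both ages and both of its starts carry an E-box, that of Bmal1 because it holds the ROR element, and that of Per1 because it is the E-box window of the other measured member. Capitals mark the motif and all of these windows lie on the plus strand.
Tef, chr15:81802423-81802722: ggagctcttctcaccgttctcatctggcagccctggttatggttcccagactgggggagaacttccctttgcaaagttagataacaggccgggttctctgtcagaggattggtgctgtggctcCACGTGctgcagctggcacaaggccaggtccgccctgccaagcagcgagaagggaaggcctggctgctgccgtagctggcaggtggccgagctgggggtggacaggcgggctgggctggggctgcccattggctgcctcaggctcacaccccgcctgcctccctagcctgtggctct
Tef, chr15:81811164-81811463: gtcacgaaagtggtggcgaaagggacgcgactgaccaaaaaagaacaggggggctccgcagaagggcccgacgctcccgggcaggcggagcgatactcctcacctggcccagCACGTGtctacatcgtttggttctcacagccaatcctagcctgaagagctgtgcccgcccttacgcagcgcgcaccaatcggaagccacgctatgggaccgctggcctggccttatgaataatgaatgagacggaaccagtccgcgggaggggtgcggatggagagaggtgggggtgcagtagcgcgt
Bmal1, chr7:113207261-113207560: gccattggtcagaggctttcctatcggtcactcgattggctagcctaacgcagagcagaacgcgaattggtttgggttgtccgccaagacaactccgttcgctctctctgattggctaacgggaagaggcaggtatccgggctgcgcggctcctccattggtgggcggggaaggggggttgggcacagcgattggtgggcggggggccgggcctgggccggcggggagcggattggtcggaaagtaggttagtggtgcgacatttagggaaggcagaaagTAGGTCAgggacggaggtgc
Per1, chr11:69098699-69098998: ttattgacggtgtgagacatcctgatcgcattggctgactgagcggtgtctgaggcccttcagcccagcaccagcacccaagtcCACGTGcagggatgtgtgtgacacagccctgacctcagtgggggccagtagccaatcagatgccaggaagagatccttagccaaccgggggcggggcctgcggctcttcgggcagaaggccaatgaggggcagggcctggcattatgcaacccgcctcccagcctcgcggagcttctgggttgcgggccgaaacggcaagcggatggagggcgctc
The E-boxes of Tef began 127 and 138 bases before the respective start, that of Per1 166 bases before it, and the ROR element of Bmal1 30 bases after it. An E-box was found in 4 of the 14 windows (both of Tef, 1 of Per1 and that of Cry1), against 7.15% of all 32851 RefSeq windows. No window of Bmal1, Clock, Dbp, Nr1d1, Nr1d2 or Per3 held an E-box. The 14 windows are not independent, since Tef counts with both starts and windows of Bmal1 and of Clock share bases. The difference in share was not tested. The E-prime box was found in 2 windows (Cry1 and Nr1d1; 4.68% of all), the D-box in 1 window (Per3; 0.938% of all) and the ROR element in 1 (2.61% of all). The D-box variant (0.119% of all windows) and the cAMP response element (1.79%) were found in none of the 14. A match describes these letters in these windows and is not evidence of a bound site.

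Between 6587 and 9943 probes per array were detected. The median correlation between arrays of 1 group was lowest in old quiescent FAPs, at 0.908, and lay between 0.940 and 0.952 in the other groups. Old activated replicate 4 stood apart, with 6587 detected probes and an array weight of 0.294, both the lowest of the 24. Markers were read as a description of the sorted cells. Pdgfra, the receptor that defines FAPs, was detected on all 24 arrays, whereas 4 of 5 satellite cell markers (Pax7, Myf5, Myod1 and Itga7) were detected on none. The fifth, the adhesion molecule gene Vcam1, was detected on all 24 and rose in young FAPs (1.36, limma adjusted p 0.012). A probe without detection does not show absence, since that of the fibroblast marker Col1a1 was detected on only 1 array, a young quiescent one. Markers of other cells, such as C1qa (macrophage), Vwf (endothelium) and Hba-a1 (red blood cell), were also detected on all 24 arrays. The purity of the sort was thus not measured. After injury 8 of 12 measured FAP and fibroblast markers were lower in young arrays, and 9 were lower and 1 higher in old arrays. Among all genes 16.7% were lower in young and 14% in old arrays, and 33.8% and 28.4% changed in either direction. Levels of the clock genes below are normalized log2 signals, in which 1 unit is a doubling.

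Part of the clock was lower after injury in both ages. In young FAPs 4 of the 8 measured clock genes fell 3 days after glycerol (Per2, Dbp, Tef and Bmal1) and none rose, where 16.7% of all 7576 genes fell and 33.8% changed in either direction. In old FAPs 3 of 8 fell (Per2, Tef and Bmal1) and none rose, where 14% of all genes fell and 28.4% changed in either direction. All 8 changes were below 0 in young FAPs with a median of -0.69 on the log2 scale, against -0.01 over all genes. Those of Nr1d1 (-0.01) and Nr1d2 (-0.05) were close to 0. In old FAPs 6 of 8 were below 0 with a median of -0.54, against -0.00 over all genes. The old count was 1 or 2 in 11 of 12 other settings. In the remaining setting, chosen after seeing the data, it was 3 with Nr1d1 in place of Bmal1. A gene is called here when its Benjamini-Hochberg adjusted p in limma, over all features, is under 0.05.

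**Figure D1:**
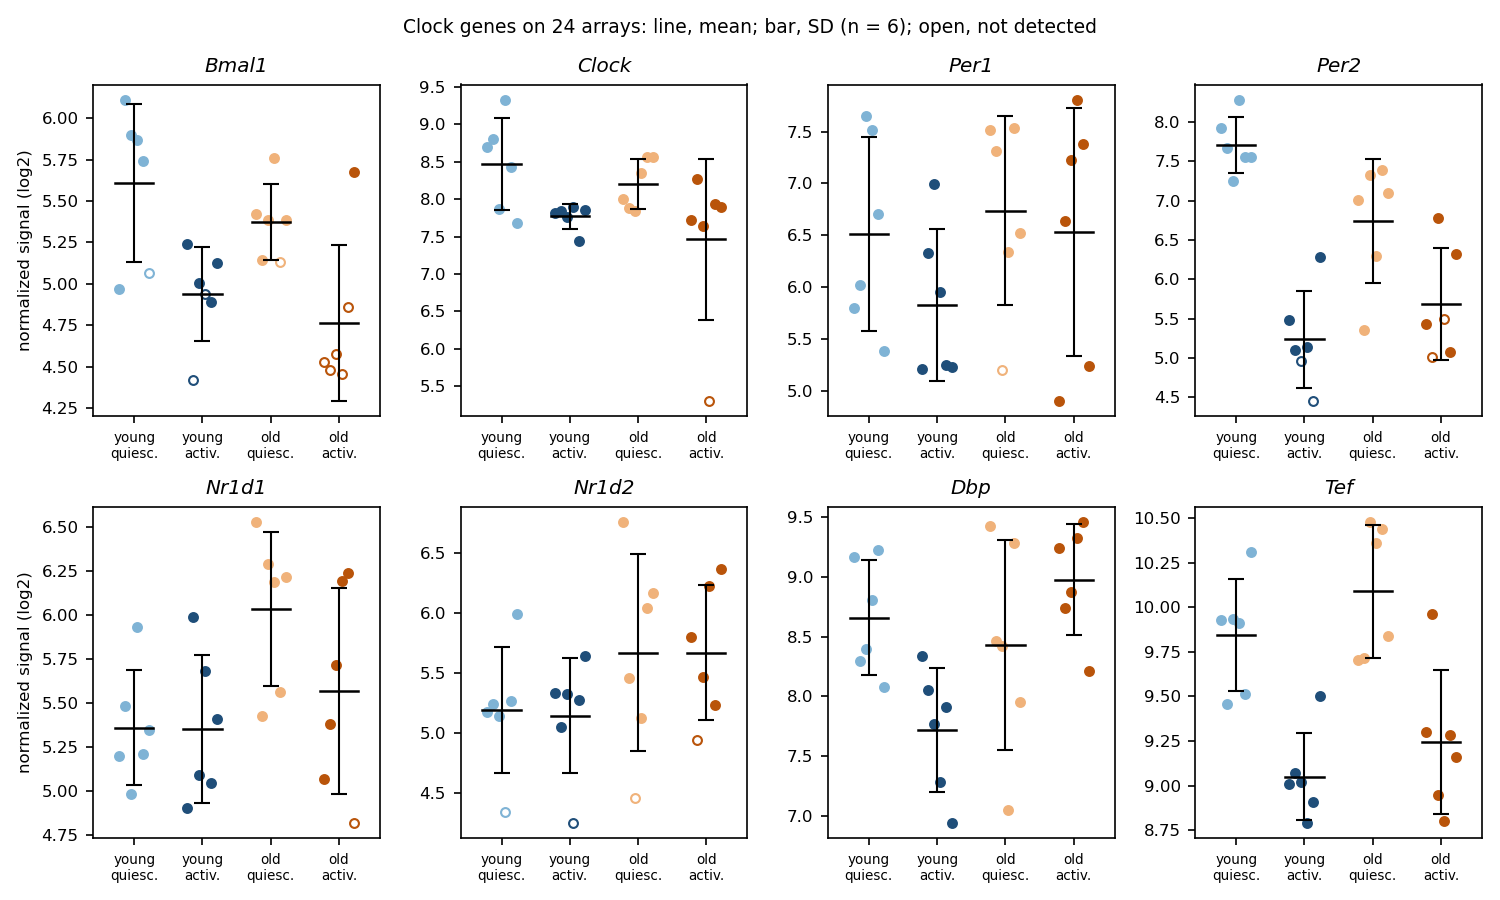
Normalized log2 signal (y axis) of the 8 measured clock genes on each of the 24 arrays, by group, with the mean as a line and the SD as a bar (n = 6); open points were not detected, and each panel has its own scale that does not start at 0. The Per2 points of young quiescent arrays (7.25 to 8.29) lie above all those of young activated arrays (4.45 to 6.28), and 5 of the 6 Dbp points of old activated arrays (8.21 to 9.46) lie above all those of young activated arrays (6.94 to 8.34).

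Bmal1 encodes the activator without which the loop does not run. Its log2 signal was 4.97, 5.80 and 6.11 (lowest, median and highest of 6 arrays) in young quiescent and 4.42, 4.97 and 5.24 in young activated FAPs. In old FAPs it was 5.13, 5.39 and 5.76 in quiescent and 4.45, 4.55 and 5.67 in activated arrays. Activated arrays were mostly the lower ones in each age, and the groups overlapped in both. The probe was dim: it was detected on 5 of 6 young quiescent, 4 young activated, 5 old quiescent and only 1 old activated array, so the level of that last group lies mostly at background. The change was -0.67 ± 0.23 (SE) in young (1.59-fold lower, limma adjusted p 0.0234) and -0.61 ± 0.23 in old FAPs (1.53-fold lower, adjusted p 0.046). Both calls were narrow: the young one was lost without young activated replicate 2 or young quiescent replicates 2, 3 or 4 (adjusted p 0.052 to 0.0659), and the old one in 15 of the 24 fits that each left out 1 array (adjusted p up to 0.103). The old call was also lost in 10 of 11 other settings (adjusted p up to 0.237). Without background correction the change was -0.20 in young, where the call was kept, and -0.15 in old FAPs (adjusted p 0.123).

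Clock, whose product pairs with BMAL1, had log2 signals of 7.68, 8.56 and 9.33 in young quiescent and 7.44, 7.83 and 7.90 in young activated arrays. In old arrays the lowest, median and highest were 7.85, 8.17 and 8.56 in quiescent and 5.30, 7.81 and 8.27 in activated FAPs. The young activated arrays were tightly grouped (SD 0.17) at the lower end of the quiescent range, and 1 old activated array, replicate 4, lay far below the rest. The difference was -0.70 ± 0.36 in young (adjusted p 0.14, 95% interval -1.44 to 0.04) and -0.74 ± 0.36 in old FAPs (adjusted p 0.129), so neither passed the test. Without old activated replicate 4 the young difference passed with an adjusted p of 0.0184, and the old difference was -0.31 (adjusted p 0.363). The young difference also passed with array weights (adjusted p 0.0102) and with only the groups compared in the fit (0.0387). The remaining 2 Clock probes were not detected on any array.

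Per2 encodes a repressor of BMAL1 and CLOCK and showed the largest change of the 8 genes. Its log2 signal was 7.25, 7.61 and 8.29 in young quiescent and 4.45, 5.12 and 6.28 in young activated FAPs. In old FAPs it was 5.36, 7.05 and 7.40 in quiescent and 5.02, 5.46 and 6.79 in activated arrays. The young groups did not overlap, which held for Per2 alone among the 8 (10.9% of all genes were lower without overlap in this comparison), whereas the old groups did. Per2 fell by 2.47 ± 0.35 on the log2 scale in young FAPs (5.56-fold lower, adjusted p 6.42e-06) and by 1.06 ± 0.35 in old FAPs (2.08-fold lower, adjusted p 0.0265, with 5 of 6 activated arrays below the quiescent mean). In old FAPs 0 of the 8 genes were lower without overlap, against 4.57% of all genes.

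A second kept Per2 probe changed by -1.76 ± 0.31 in young (adjusted p over all kept probes 8.74e-05) and by -0.63 ± 0.31 in old FAPs (adjusted p 0.136). The probes thus gave the same direction in both ages, and the second did not pass in old FAPs. Old quiescent replicate 2 held the lowest Per2 signal of its group, 5.36, and without it the old change was -1.34 (adjusted p 0.00295). The size of the fall depended on the scale: without background correction it was -1.14 in young and -0.46 in old FAPs, and with an offset of 50 it was -1.74 and -0.73, with the call kept in both. The old call was lost without old activated replicates 1, 2 or 5 or old quiescent replicates 3, 5 or 6 (adjusted p 0.0514 to 0.0656).

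Per1, a Per2 paralogue that is also induced quickly by light, stress and glucocorticoids, varied most among replicates. Its log2 signal was 5.39, 6.37 and 7.65 in young quiescent and 5.21, 5.60 and 6.99 in young activated arrays. In old arrays it was 5.20, 6.92 and 7.54 in quiescent and 4.90, 6.93 and 7.81 in activated FAPs. Every group overlapped every other, and the highest and lowest array of a group lay 3.44-fold (young activated) to 7.49-fold (old activated) apart. Differences with activation were -0.69 ± 0.52 in young (adjusted p 0.33) and -0.20 ± 0.52 in old FAPs (adjusted p 0.816), and neither passed. Its second kept probe, detected on 12 of 24 arrays, gave -0.17 ± 0.30 and 0.17 ± 0.30.

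The REV-ERB genes did not pass the test on activation in either age. Nr1d1 had a mean log2 signal of 5.36 ± 0.33 (SD, n = 6) in young quiescent and 5.35 ± 0.42 in young activated FAPs. In old FAPs Nr1d1 was at 6.04 ± 0.44 in quiescent and 5.57 ± 0.58 in activated arrays. The young groups lay on top of each other (difference -0.01, 95% interval -0.54 to 0.53), while the old difference was -0.47 ± 0.26 (adjusted p 0.188). With old activated replicate 4 and old quiescent replicate 2 left out together, an alternative chosen after seeing the data, the old Nr1d1 difference was -0.71 with an adjusted p of 0.0458. Nr1d2 had means of 5.19 ± 0.52, 5.15 ± 0.48, 5.67 ± 0.82 and 5.67 ± 0.56, in the order young quiescent, young activated, old quiescent, old activated. Its activation differences were -0.05 (95% interval -0.75 to 0.65) in young and 0.00 (-0.70 to 0.70) in old FAPs, and all 4 groups overlapped. Both genes were dim, with Nr1d1 detected on 23 and Nr1d2 on 20 of 24 arrays.

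Tef, the steadier of the PAR bZIP output factors, fell in both ages. Its log2 signal was 9.46, 9.92 and 10.31 in young quiescent and 8.79, 9.01 and 9.50 in young activated arrays. In old arrays it was 9.70, 10.10 and 10.48 in quiescent and 8.80, 9.22 and 9.96 in activated FAPs. In each age the quiescent arrays were the higher ones, and only the highest activated array reached into the quiescent range. The change was -0.79 ± 0.21 in young (1.73-fold lower, adjusted p 0.00433) and -0.85 ± 0.21 in old FAPs (1.80-fold lower, adjusted p 0.00332), with all 6 activated arrays below the quiescent mean in both. Tef was detected on all 24 arrays and its calls held in all 24 fits that left out 1 array (adjusted p 0.00222 to 0.0138 in young and 0.000719 to 0.0101 in old). These fits share the arrays of the other groups. The difference between the ages in this change was -0.05 ± 0.29.

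Dbp, the other PAR bZIP factor among the 8, fell in young FAPs and did not pass the test in old ones. Its log2 signal was 8.08, 8.60 and 9.22 in young quiescent and 6.94, 7.84 and 8.34 in young activated arrays. In old arrays it was 7.05, 8.44 and 9.42 in quiescent and 8.21, 9.06 and 9.46 in activated FAPs. In young mice the activated arrays were the lower ones with some overlap, and in old mice 5 of 6 activated arrays lay above the quiescent mean. Dbp changed by -0.94 ± 0.34 in young (1.92-fold lower, adjusted p 0.0332) and differed by 0.54 ± 0.34 in old FAPs (1.46-fold higher, adjusted p 0.244, 95% interval -0.15 to 1.24). The young call was lost without young activated replicates 4 or 6 or young quiescent replicates 1, 4 or 5 (adjusted p 0.0575 to 0.0888) and with no detection filter (adjusted p 0.0766). The difference between the ages in this change did not pass after adjustment either (adjusted p 0.275).

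**Figure D2:**
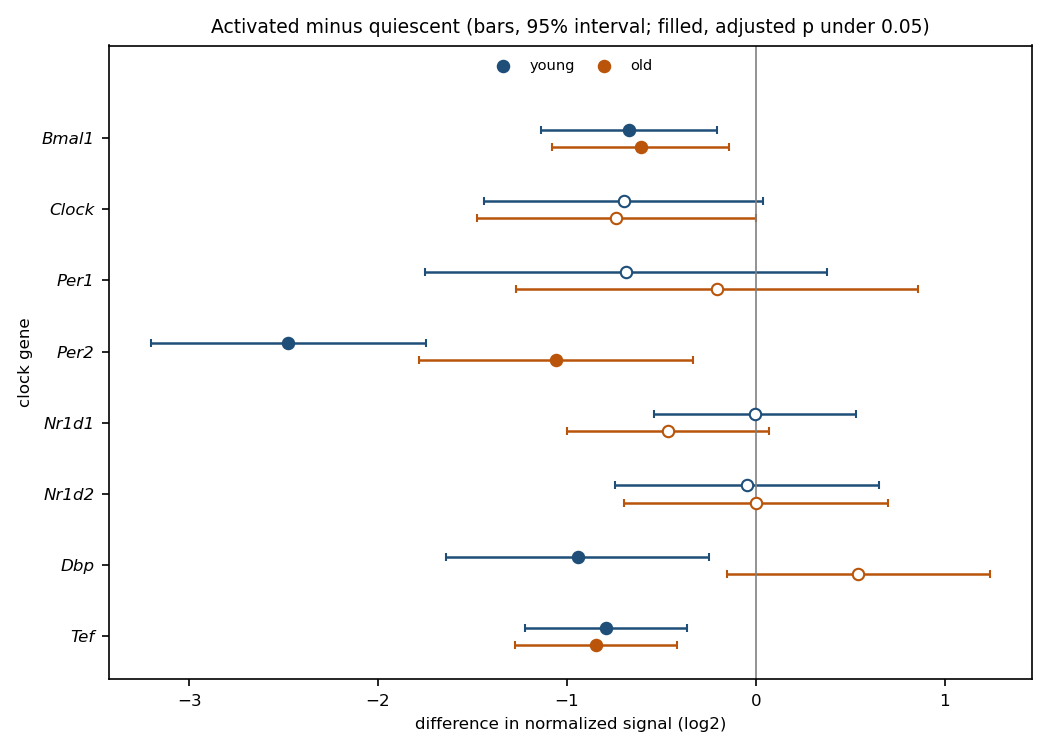
Activated minus quiescent difference in normalized log2 signal (x axis) for each measured clock gene (y axis) in young and old FAPs, with 95% intervals from limma (n = 6 arrays per group) and filled points for an adjusted p under 0.05. Per2, Tef and Bmal1 lie below 0 and are filled in both ages, while Dbp is at -0.94 in young and at 0.54 in old FAPs.

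The clock genes differed in how closely replicates lay together. The moderated SE of a group difference, 1 estimate shared by all 4 groups, was 0.21 for Tef, smaller than in all but 18.1% of the 7576 genes. For Bmal1 it was 0.23 (26% of genes smaller), but Bmal1 was detected on only 15 of 24 arrays and lies near background on many. The SE was 0.52 for Per1, where 93.9% of genes had a smaller SE, and 0.34 to 0.36 for Nr1d2, Dbp, Per2 and Clock (67.4% to 73.1% smaller). The median SE over all genes was 0.28. Dbp varied most in old quiescent arrays, where the highest and lowest lay 5.18-fold apart against 2.22-fold in young quiescent, 2.64-fold in young activated and 2.37-fold in old activated arrays. Clock spanned 7.83-fold in old activated and 1.38-fold in young activated arrays.

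Other parts of the loop were counted from a list of 20 further clock components, of which 11 were measured. In young FAPs 4 fell and 1 rose, where 16.7% of all genes fell and 33.8% changed, and in old FAPs 3 fell and 1 rose, where 14% fell and 28.4% changed. Rora, an activating receptor that competes with the REV-ERBs at ROR elements, fell by 2.20 ± 0.34 in young (4.60-fold lower, adjusted p 1.85e-05) and by 1.73 ± 0.34 in old FAPs (3.32-fold lower, adjusted p 0.00046). No Rora probe was detected on more than 3 of 6 young activated or 4 of 6 old activated arrays, so background and offset set part of these folds. The 2 casein kinases that phosphorylate PER proteins moved apart: Csnk1e changed by -0.91 ± 0.24 and -0.95 ± 0.24 in young and old FAPs (adjusted p 0.00531 and 0.00507), and Csnk1d by 0.90 ± 0.20 and 0.71 ± 0.20 (adjusted p 0.00122 and 0.00988). Bhlhe40, which encodes the repressor DEC1, fell by 0.56 ± 0.18 in young and by 1.08 ± 0.18 in old FAPs (adjusted p 0.0205 and 0.000114). Cry2, the Cry1 paralogue, was not detected on any young activated array and was at least 1.33-fold lower there than in young quiescent FAPs (adjusted p 0.0407). The old Cry2 difference of -0.51 ± 0.30 did not pass (adjusted p 0.206).

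Nfil3, a repressor that competes with DBP and TEF at D-boxes, had differences of -0.38 ± 0.22 in young and -0.47 ± 0.22 in old FAPs (adjusted p 0.184 and 0.105). Hlf, the remaining PAR bZIP gene, was at 0.01 ± 0.19 and -0.14 ± 0.19 and was detected on at most 3 arrays of a group. Timeless, Gsk3b, Nono and Sfpq did not pass in either age. Over the 11 components the median change was -0.38 in young (also with Cry2 at its bound) and -0.41 in old FAPs, against the medians of all genes given above.

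Of 12 output genes that cycle in many mouse tissues 8 were measured. In young FAPs 3 fell and 1 rose, again beside 16.7% of all genes that fell and 33.8% that changed. Tsc22d3, which encodes the glucocorticoid-induced leucine zipper, fell by 2.41 ± 0.32 (5.33-fold, adjusted p 2.31e-06). Klf9, a Kruppel-like factor gene under clock and glucocorticoid control, fell by 2.20 ± 0.33 (4.61-fold, adjusted p 1.48e-05). Usp2, a ubiquitin protease gene, fell by 1.19 ± 0.29 (2.28-fold, adjusted p 0.00281), and Nampt, of the NAD salvage pathway, rose by 0.90 ± 0.32 (1.87-fold, adjusted p 0.0311). No Usp2 probe was detected on more than 3 of 6 young activated arrays. In old FAPs 2 fell and 1 rose, close to the 28.4% of all genes that changed: Klf9 fell by 2.09 ± 0.33 (4.25-fold, adjusted p 5.46e-05), Tsc22d3 by 1.25 ± 0.32 (2.38-fold, adjusted p 0.0045), and the purine salvage gene Pnp rose by 0.75 ± 0.28 (1.69-fold, adjusted p 0.0498). The median change of the 8 was -0.28 in young and -0.14 in old FAPs.

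**Figure D3:**
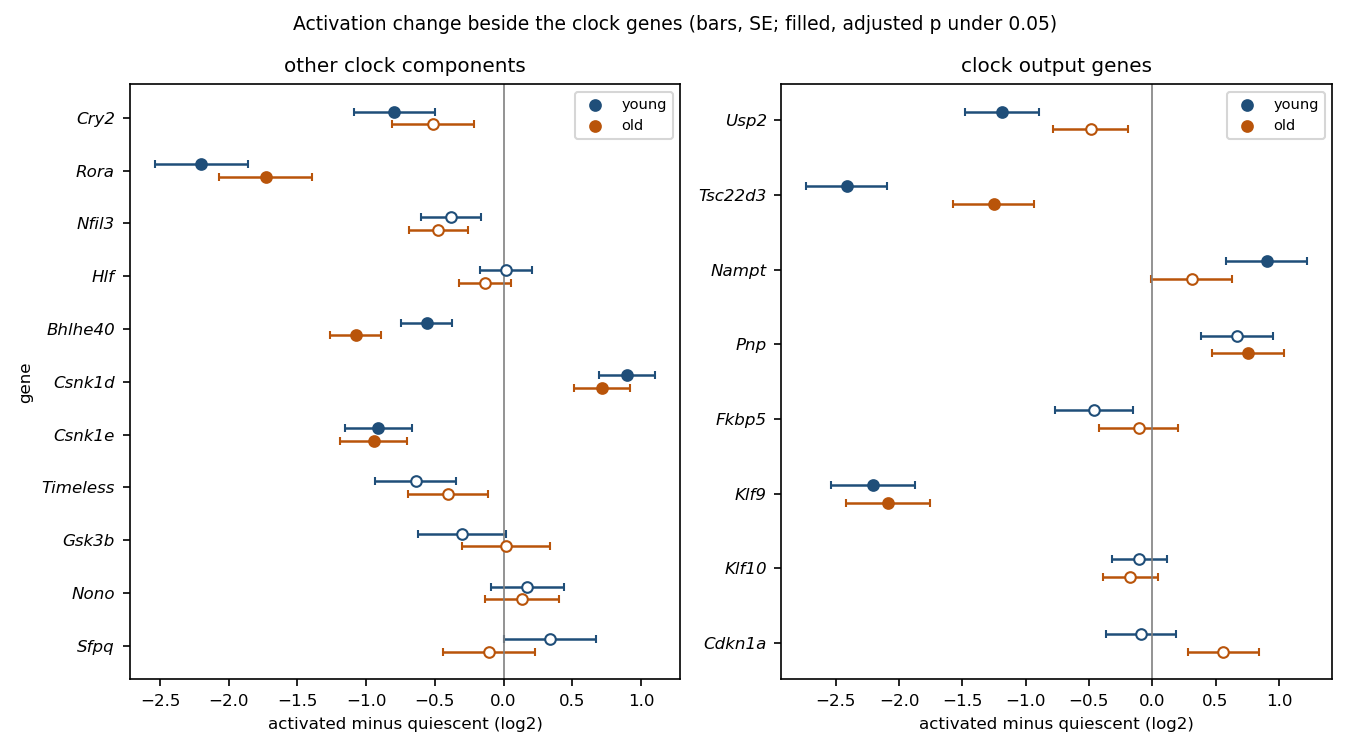
Activated minus quiescent difference in normalized log2 signal (x axis) of the measured members of the list of other clock components (left) and of the list of cycling output genes (right) in young and old FAPs, with the SE as a bar (n = 6 arrays per group) and filled points for an adjusted p under 0.05. Rora, Klf9 and Tsc22d3 lie furthest below 0 in young FAPs, at -2.20, -2.20 and -2.41, Csnk1d lies above 0 in both ages, and the young Cry2 point is a fitted value of a gene not detected on any young activated array.

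Klf9 and Tsc22d3 also belong to a list of 10 glucocorticoid-induced genes that holds Per1, and 3 of its 8 measured members fell in each age, with Dusp1 (-1.08 ± 0.21, adjusted p 0.000237) as the third in young and Mt2 (-0.84 ± 0.25, adjusted p 0.0142) in old FAPs. Immediate early genes, whose products rise within minutes of cell stress, fell in 4 of 8 measured members in each age. Over all genes 16.7% fell in young and 14% in old FAPs. Fos, Egr1 and Ier2 fell in both, Jun in young and Fosb in old FAPs. From a list of 12 mitosis genes 7 were measured, and all 7 rose in both ages. In either direction 33.8% of all genes changed in young and 28.4% in old FAPs. The part of glucocorticoid, of stress during sorting or of cell division in the clock gene values was not tested.

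Markers of other cells moved with activation as well. The counts below stand beside 33.8% of all genes that changed in either direction in young FAPs and 28.4% in old FAPs. The share of all genes that fell was 16.7% in young and 14% in old FAPs. All 11 measured macrophage and monocyte markers rose in young FAPs, where the mean log2 signal of the list went from 6.57 to 7.44 in quiescent to 8.84 to 11.39 in activated arrays. In old FAPs 10 of 11 rose, from 7.11 to 10.91 in quiescent to 10.30 to 11.44 in activated arrays, so these groups overlapped. The defining leukocyte genes Ptprc and Itgam did not pass the filter. Endothelial markers fell in 9 of 10 members in young (8.76 to 9.63 against 5.97 to 7.19) and in 4 of 10 in old FAPs (8.01 to 9.23 against 7.36 to 7.80). Pericyte and smooth muscle markers fell in 5 of 6 members in young (7.94 to 9.32 against 6.59 to 6.91) and in 2 of 6 in old FAPs (6.997 to 8.763 against 6.549 to 7.004). Muscle fibre genes fell in 4 of 5 members in young (6.43 to 7.60 against 4.98 to 5.82) and in 2 of 5 in old FAPs (6.20 to 7.40 against 6.01 to 7.91). Red blood cell genes fell in 3 of 3 members in each age. Of 5 lymphocyte markers 4 fell in old FAPs (5.65 to 8.46 against 4.56 to 5.74) and 0 changed in young FAPs. In a bulk sample fewer cells of a type and less RNA per cell cannot be told apart, and the part of these cells in the clock gene changes was not tested.

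Age comparisons gave no clock gene past the threshold. Between old and young quiescent FAPs limma called 0 of 8, where 0.607% of all genes were called. At an unadjusted p under 0.05 there were 2 of 8, where 12.7% of all genes reached that level. Nr1d1 was higher in old quiescent FAPs by 0.68 ± 0.26 (1.60-fold, unadjusted p 0.0156 and adjusted p 0.248 in limma), with all 6 old arrays above the young mean. Its values ran from 5.43 to 6.53 in old and from 4.99 to 5.93 in young quiescent arrays, so the groups overlapped. Per2 was lower by 0.96 ± 0.35 (1.95-fold, unadjusted p 0.0115 and adjusted p 0.22), with all 6 old arrays below the young mean, and without old quiescent replicate 2 by 0.69.

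The other members differed less between old and young quiescent FAPs. Nr1d2 was at 0.48 ± 0.34, Tef at 0.25 ± 0.21 and Per1 at 0.22 ± 0.52, while Clock (-0.27 ± 0.36), Bmal1 (-0.24 ± 0.23) and Dbp (-0.23 ± 0.34) lay below 0. The median over the 8 was -0.00 against -0.01 over all genes. Lymphocyte markers moved with age in this state: Cd3d, Cd3g and Cd79b, 3 of 5 measured, were higher in old quiescent FAPs. Of all genes 0.607% were called in this comparison. The lymphocyte list mean ran from 5.65 to 8.46 in old against 4.51 to 5.02 in young quiescent arrays. The macrophage list was called for 0 of 11 members, with list means of 7.11 to 10.91 in old and 6.57 to 7.44 in young quiescent arrays. The part of these cells was not tested.

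Between old and young activated FAPs 0 of 8 clock genes were called, where 0.277% of all genes were, and 1 of 8 reached an unadjusted p under 0.05, as 11.4% of all genes did. That gene was Dbp, at a mean of 8.97 ± 0.46 (SD, n = 6) in old and 7.72 ± 0.52 in young activated FAPs. Dbp differed by 1.26 ± 0.34 (2.39-fold higher, unadjusted p 0.00105 and adjusted p 0.1 in limma), and all 6 old arrays lay above the young mean. The groups met at a single pair of arrays, the lowest old at 8.21 and the highest young at 8.34. The call depended on the model: with array weights the adjusted p was 0.0393, and it ranged from 0.0504 to 0.234 when 1 array was left out. Per1 (0.70 ± 0.52), Nr1d2 (0.53 ± 0.34), Per2 (0.45 ± 0.35), Nr1d1 (0.22 ± 0.26) and Tef (0.19 ± 0.21) lay above 0, and Clock (-0.31 ± 0.36) and Bmal1 (-0.17 ± 0.23) below it. Of the marker lists, 2 of 10 endothelial genes (Robo4 and Gpihbp1), 1 of 3 red cell genes (Hba-a1) and 1 of 5 fibre genes (Tnnt3) were higher in old activated FAPs. No member of the other marker lists was called, and the part of these cells was not tested.

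The activation change of the clock genes was not shown to differ with age. The interaction was called for 0 of 8 members, where 0.198% of all genes were called, and 2 of 8 reached an unadjusted p under 0.05, as 8.59% of all genes did. For Dbp the old change exceeded the young one by 1.48 ± 0.48 (unadjusted p 0.00476, adjusted p 0.275 in limma). For Per2 the fall was smaller in old FAPs by 1.42 ± 0.50 (unadjusted p 0.009, adjusted p 0.341), and by 1.14 without old quiescent replicate 2. Per2 and Dbp thus had 95% intervals of the difference above 0 before adjustment (0.39 to 2.44 and 0.50 to 2.47). For the other 6 members these intervals included 0, the widest being that of Per1 (-1.02 to 1.99) and the narrowest that of Tef (-0.66 to 0.55). Of the cell markers, 2 of 10 endothelial genes (Robo4 and Gpihbp1) and 1 of 3 red cell genes (Hba-a1) were called in this comparison, with differences above 0. The other marker lists had no call, and the part of these cells was not tested.

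**Figure D4:**
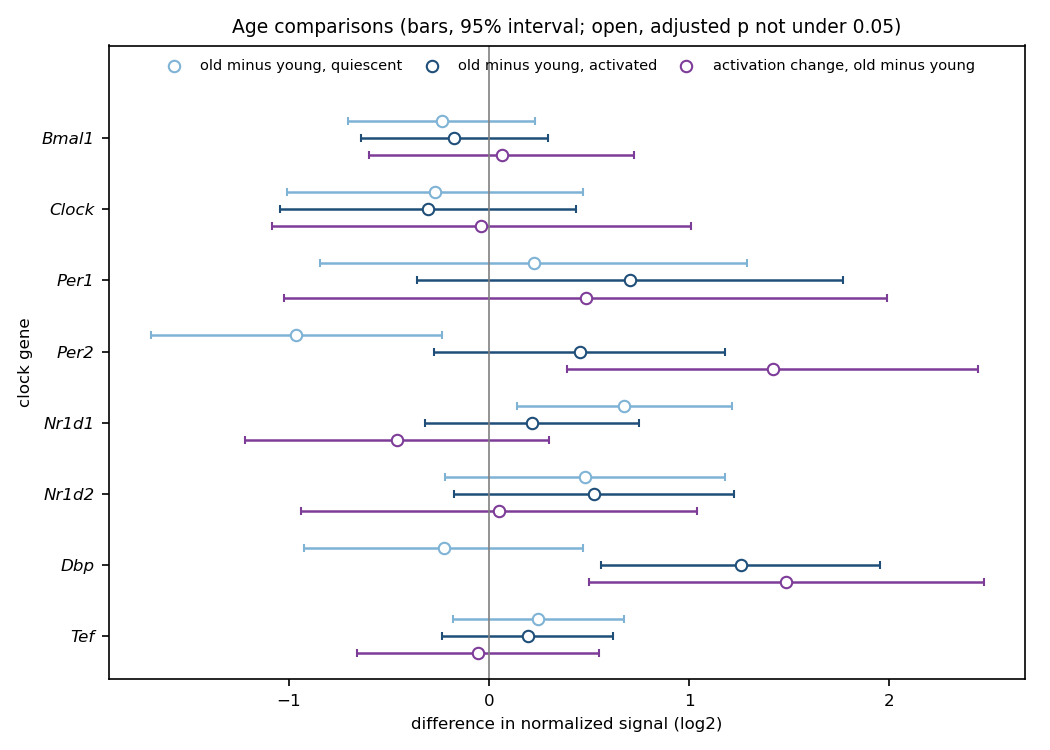
Differences in normalized log2 signal (x axis) for each measured clock gene (y axis): old minus young in quiescent FAPs, old minus young in activated FAPs, and the old minus the young activation change, with 95% intervals from limma (n = 6 arrays per group). All points are open, since no adjusted p was under 0.05. The intervals of Per2 and Nr1d1 in quiescent FAPs, of Dbp in activated FAPs and of the activation change of Per2 and Dbp lie to 1 side of 0.

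By mean signal the groups ranked as follows for the genes called on activation. Tef was ordered old quiescent (10.09), young quiescent (9.84), old activated (9.24) and young activated (9.05), with neighbours of the same state not called apart. Per2 was ordered young quiescent (7.71), old quiescent (6.74), old activated (5.69) and young activated (5.23), and here too neighbours of the same state were not called apart. Dbp was ordered old activated (8.97), young quiescent (8.66), old quiescent (8.43) and young activated (7.72). Its quiescent neighbours differed by less than their SD, and young activated was the lowest group. Bmal1 was ordered young quiescent (5.61), old quiescent (5.37), young activated (4.94) and old activated (4.76), again with no call between the ages.

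Bmal1 is known to peak at a phase opposite to that of Dbp and Nr1d2, and these pairs were read against each other within each group of 6 arrays. Nr1d1 was not read against Bmal1. All p-values are from exact 2-sided permutation of the pairings. Dbp and Bmal1 had a Pearson r of -0.14 (p 0.725) and a Spearman rho of -0.31 (p 0.564) in young quiescent arrays, and an r of -0.19 (p 0.731) and a rho of -0.09 (p 0.919) in young activated arrays. In old quiescent arrays r was -0.70 (permutation p 0.133, adjusted p 0.583 over 8 relations) and rho -0.37 (p 0.497). In old activated arrays r was -0.67 (permutation p 0.146, adjusted p 0.583) and rho -0.26 (p 0.658). Without the 2 arrays farthest from the median Dbp signal r became 0.55, 0.26, -0.74 and -0.31 in the same order of groups. Nr1d2 and Bmal1 gave an r of -0.50, 0.31, -0.22 and 0.48 in that order (permutation p 0.419, 0.464, 0.667 and 0.367, adjusted p 0.731 for each). Their rho was -0.31, 0.77, -0.14 and 0.20 (permutation p 0.564, 0.103, 0.803 and 0.714), and r without the 2 farthest arrays was 0.33, 0.95, -0.56 and -0.87. Bmal1 was detected on only 1 old activated array, replicate 6, so its other values in that group lie at background. Without replicate 6 the old activated r with Bmal1 was 0.51 for Dbp and -0.38 for Nr1d2. None of the 8 relations passed, and a pair of Dbp with Per3 could not be read because Per3 was not detected.

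The genes whose log2 values, centred on each group's mean, followed a clock gene most closely over the 24 arrays were listed for Dbp and Bmal1 as a description. For Dbp they were Evi5 (r 0.77), Slc8a1 (0.73), Helz (0.73), Slc29a3 (0.71) and Slc30a5 (0.68). For Bmal1 they were Vopp1 (r 0.68), Trim33 (0.68), Pcdh20 (0.66), Flvcr2 (0.65) and Foxj3 (0.64). The clock genes themselves were left out of this ranking, and only the highest positive r were kept. Another clock gene, or a gene that moves oppositely, could therefore not appear. Of the lists of other clock components and output genes, which could appear, none was among these 10. Vopp1, Pcdh20 and Flvcr2 were detected on 7, 6 and 9 of 24 arrays, and like Bmal1 itself they lie near background on many arrays. Deviations on the same arrays share each array's labelling and normalization.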

How the data were processed

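The deposited table holds, per the file headers, 1 raw intensity and 1 detection p-value per probe and array (25697 probes on 24 arrays, 6 in each of 4 groups). The authors also deposited log2 values, with a median of 6.71 in every column, which lay within 0.118 of log2 quantile-normalized intensities and served as an alternative. Partek is the tool listed in the submitters' processing notes, its version not given.

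Intensities were background-corrected with limma's nec, raised by an offset of 16, quantile-normalized and log2-transformed in R 4.3.3 with limma 3.58.1. A probe was kept if its detection p was under 0.01 on 6 or more of 24 arrays (10048 probes), and the brightest stood for a gene (8148 features, 7576 of them named genes). A single gene symbol was given for 23978 of all probes, several for 0 and none for 1719. Gene names came from the platform annotation, and for 23962 probes the Entrez identifier was found in the RefSeq gene table.

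One limma model (lmFit, eBayes) of 4 group means gave 5 contrasts, with p-values adjusted over all features of a contrast (Benjamini-Hochberg). Intervals are 95% intervals and errors of differences are moderated SE, with n = 6 arrays per group. Arrays counted beside a mean are those of the first group on that side of the other group's mean. The labels call the arrays biological replicates, and precision is limited by the number of arrays. The closest pair among all 24 arrays correlated at 0.969. Correlations within a group used exact permutation of the pairings (Python 3.11.15). A gene detected on no array of a group has only a bound there, and its fold sets the mean of the brighter group against a floor: on each array of the dimmer group, the gene's own signal or the lowest detected signal, whichever is higher, averaged.

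All 10 clock genes are named whatever their result, and list genes where they were called, up to 6 per list and comparison by size. For likeness the 5 genes with the highest r are named, the 10 clock genes left out. The members and lists were chosen with earlier results of these data known. On simulated data with 200 of 8148 features changed, the share of 2-fold changes recovered was 51% (young activation), 44% (old activation), 56% (age, quiescent) and 49% (age, activated), and of 4-fold changes 92%, 88%, 93% and 94%. In the data 33.8% (young) and 28.4% (old) of genes were called on activation, and the adjusted p depends on that share. The simulated recovery therefore does not measure that of the activation comparisons. Alternatives in background correction, offset, normalization, filter, probe choice, weights, samples in the fit and arrays left out are given in the closing section.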

Additional observations from a re-analysis of the deposited data

Results flagged for a closer look

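In 32 groups of 6 arrays (8 clock genes in 4 groups) the distance of the most extreme array from its neighbour was divided by the group's range, and values above Dixon's 95% critical value were singled out. Such a rule picks out about 5% of groups by chance, and 3 were found. Bmal1 in old activated replicate 6 gave 0.665: its log2 signal was 5.67, the next array lay at 4.86 and the lowest at 4.45. It was the only old activated array on which Bmal1 was detected. Clock in young activated replicate 5 gave 0.710, at 7.44 against 7.76 for the next and 7.90 for the highest array, a narrow group. Clock in old activated replicate 4 gave 0.789, at 5.30 against 7.64 for the next and 8.27 for the highest array. That array had the fewest detected probes of all 24, 6587, and what sets it apart was not tested.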

How the results depend on the processing

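The 8 clock genes gave 1402 values of a change under alternative settings, of which 1284 kept their direction and side of the threshold, 45 lost and 7 gained a call, and 66 turned sign. The number of clock genes called on activation in old FAPs, 3, was 1 with median scaling, with no detection filter and with only the groups compared in the fit. It was 2 in 7 other settings (no background correction, deposited log2 values, offset 50, cyclic loess, mean of kept probes, array weights and the replicate block), and ranged from 1 to 3 when 1 array was left out, with 3 in 8 of 24 fits. It was 1 without old activated replicates 1, 2 or 5 or old quiescent replicates 3 or 6. In young FAPs the number, 4, ranged from 2 to 5 when 1 array was left out, and was 2 without young quiescent replicate 4. The old Per2 call was lost with median scaling, with no detection filter, with the mean of its kept probes and with only the groups compared in the fit (adjusted p 0.0519 to 0.0762). With only probes detected on all arrays, which leaves 2 clock genes (Dbp and Tef), 2 were called in young and 1 in old FAPs. Between old and young activated FAPs the number, 0, was 1 with array weights and 1 with the replicate number as a block, in each case Dbp (adjusted p 0.0393 and 0.0351). With that block the old activation call of Bmal1 was lost (adjusted p 0.0658). The deviations of same-numbered arrays had an r of -0.09 to 0.36, above 0 in 29 of 36 pairs and over 0.1 in 8, of which 3 were among the 6 pairs of young with old activated arrays. Since not every pair was over 0.1, the numbers were not taken as pairs, although 8 of 24 arrays correlated best with one of their own number, a hint from the data and not from the design. The counts between old and young quiescent FAPs and of the interaction, and of correlated pairs, were 0 under every alternative run.

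No value that turned sign was called. Without background correction, with the deposited log2 values, with an offset of 50, with cyclic loess and with array weights the Nr1d1 change in young FAPs was 0.00242, 0.00206, 0.00190, 0.0224 and 0.00619. In the same order the Nr1d2 change in old FAPs was -0.0195, -0.0184, -0.0237, -0.110 and -0.315, and with median scaling -0.00421. The Clock interaction was 0.0936, 0.0925, 0.0434, 0.0550 and 0.375 in that order, and 0.205 with median scaling. The Tef interaction was 0.0308 with median scaling and 0.0483 with array weights, and that of Nr1d2 was -0.0514 with loess and -0.337 with array weights. With array weights the Nr1d2 change in young FAPs was 0.0228 and the Clock age difference in activated FAPs 0.0482. With old activated replicate 4 and old quiescent replicate 2 left out, chosen after seeing the data, the counts were 5 in young and 3 in old FAPs. Those 3 were not the main 3, since Bmal1 was lost (limma adjusted p 0.0765) and Nr1d1 was gained (0.0458). In this setting the Nr1d2 old change was -0.152 and the Clock age difference in activated FAPs 0.125. The interactions of Clock and Nr1d2 were 0.330 and -0.107. With 1 array left out the ranges that crossed 0 were -0.12 to 0.19 (Bmal1), -0.21 to 0.39 (Clock), -0.19 to 0.27 (Nr1d2) and -0.20 to 0.0362 (Tef) for the interaction, -0.47 to 0.13 for the Clock age difference in activated FAPs, -0.43 to 0.0490 (Dbp) and -0.00263 to 0.53 (Per1) for age in quiescent FAPs, -0.13 to 0.11 (Nr1d1) and -0.22 to 0.13 (Nr1d2) for activation in young FAPs, and -0.24 to 0.22 (Nr1d2) and -0.51 to 0.12 (Per1) for activation in old FAPs. The r of Dbp with Bmal1 was 0.222 in young activated and that of Nr1d2 with Bmal1 0.279 in old quiescent arrays with median scaling. With 1 array left out, Dbp with Bmal1 ranged from -0.85 to 0.51 in old activated, -0.73 to 0.23 in young activated and -0.71 to 0.32 in young quiescent arrays, and Nr1d2 with Bmal1 from -0.38 to 0.77 in old activated and -0.38 to 0.0870 in old quiescent arrays.

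Limits: the cause of these differences was not tested. With median scaling the median difference over the measured features between old and young quiescent FAPs was -0.15, against -0.01 with quantile normalization. In the other comparisons it was under 0.1 in size with median scaling. Bmal1, Nr1d1 and Nr1d2, and Per2 in activated arrays, lie near background, where offset and background correction set the size of a fold. Of 2-fold changes fewer than 6 in 10 were recovered in the simulation, so a call can be missed at that size. That simulation changed a far smaller share of features than was called on activation, so it does not give the rate of missed calls there. The intervals given with the values bound each difference.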
